A study of Mus musculus with 2 samples.

Results

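Mouse genes named Zfp followed by a number are a large, unevenly studied group of zinc finger genes, and 246 of them were measured in lipopolysaccharide-treated macrophages. They were chosen by symbol and by measured level: of 340 genes of the deposited table with such a name, the 246 kept had estimated read counts summing to at least 40 over both libraries. Zfp36, whose product destabilises messenger RNA through a different type of finger, was left out. The 246 genes are part of 16218 genes in the table, of which 10783 reached the same sum. The other 94 Zfp-named genes were below it, and 81 of those had a count in both libraries. At the limit, Zfp938 (24.59 in WT and 12 in TKO), Zfp688 (18 and 20) and Zfp82 (21 and 18) were just outside, while Zfp563 (21 and 19), Zfp689 (17.08 and 24.88) and Zfp85 (23.8 and 18.21) were just inside. Since the choice used the same 2 libraries that are compared, all ratios below are descriptions.

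A C2H2 zinc finger is a short protein loop held by a zinc ion between cysteines and histidines, and arrays of such fingers read DNA bases in a row. Many of these proteins also carry a KRAB domain, which binds TRIM28 (KAP1), and TRIM28 brings the histone methyltransferase SETDB1 and HP1 proteins to silence the bound DNA. KRAB zinc finger genes lie in clusters of recent duplicates and are best known for silencing retroelements and keeping imprints in early embryos, whereas Zfp genes without the domain include promoter-binding factors, chromatin cofactors and RNA-binding proteins.

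Bone marrow-derived macrophages of strain C57BL/6J were grown for 5 days in DMEM with 10% FBS and 10% L929 supernatant, which supplies macrophage colony stimulating factor, and all received 10 ng/ml lipopolysaccharide (LPS), the bacterial product sensed by Toll-like receptor 4, for 3 h. The WT library came from Lyz2-Cre cells. The TKO library came from cells in which 3 related microRNA clusters are missing: they are mir-106a~363-/- and mir-106b~25-/-, and they carry mir-17~92flox/flox together with Lyz2-Cre. Lyz2-Cre drives recombination in myeloid cells, so in other cells of the culture the floxed cluster may remain, while the other deletions are present in all cells. Both groups carry the Cre and both were treated, so the comparison shows the genotypes after LPS and not the response to LPS. There was 1 library per genotype: no difference has a replicate check, none was tested, and the genotype cannot be told apart from other differences between the cultures.

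The microRNAs of the deleted clusters fall into 4 seed families, and the mature sequence of 1 member of each is shown because sites for these seeds are counted in the Zfp transcripts. Sequences are from RefSeq for build GRCm38.p6, 5′ to 3′, with the seed (bases 2 to 8) in capitals.
mmu-miR-17-5p: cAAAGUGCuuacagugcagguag
mmu-miR-18a-5p: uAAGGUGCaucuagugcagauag
mmu-miR-19b-3p: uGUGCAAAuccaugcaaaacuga
mmu-miR-92a-3p: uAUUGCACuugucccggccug
The matching sites in DNA letters are GCACTTT for miR-17, GCACCTT for miR-18, TTTGCAC for miR-19 and GTGCAAT for miR-92, searched on the transcript strand only, and matches of different families may overlap. The miR-17 seed is shared by miR-20a, miR-20b, miR-93, miR-106a and miR-106b, and the miR-92 seed by miR-25 and miR-363.

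Sites of these seeds in the 3′ UTRs of Zfp genes counted as higher in TKO (past 1.5-fold on the log2 scale used for the ratios) are shown with 11 flanking bases on each side. They are read from GENCODE M21 transcripts on GRCm38, 5′ to 3′ on the transcript strand, with the site in capitals. Zfp367 had 4 such sites, and the miR-17 pair shown lies at chr13:64134990-64135018 and chr13:64135138-64135166 on the minus strand. The miR-17 site of Zfp275 lies at chrX:73357563-73357591 on the plus strand. The miR-19 sites lie at chr17:17146649-17146677 on the plus strand for Zfp97, chr5:138144367-138144395 on the minus strand for Zfp113 and chr8:71892168-71892196 on the plus strand for Zfp709. The same 29 bases as in Zfp97 also stand in the stretch taken as the 3′ UTR of Zfp960 (chr17:17089434-17089462), which had 71 counts in WT against 58 in TKO. Each 3′ UTR is the longest annotated for any transcript of the gene, so it can hold bases that another transcript translates. The stretch shared by Zfp97 and Zfp960 can be read as finger-coding sequence, and whether it is translated was not checked. The miR-18 site of Zfp955b lies at chr17:33305174-33305202 on the plus strand.
Zfp367, miR-17, nearer the 3′ end: tctcacaggaaGCACTTTgtgaataagac
Zfp367, miR-17, nearer the 5′ end: gagagagaattGCACTTTttttttatatg
Zfp275, miR-17: tctacctcattGCACTTTtctttctaacc
Zfp97, miR-19: gtggtaaaaccTTTGCACgacacagtcag
Zfp113, miR-19: ttgggaaggggTTTGCACtaaaccaattt
Zfp709, miR-19: ttcttgaagacTTTGCACactagacttct
Zfp955b, miR-18: cttttctttgtGCACCTTcatgtgctgcc

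The libraries held 10764519 counts for WT and 10836855 for TKO. The 10 macrophage markers, among them Csf1r, Adgre1 and Cd68, all reached the sum of 40 and totalled 7880 CPM (counts per 1000000 of the library total) in WT and 8132 CPM in TKO, and none was 1.5-fold apart. Of 16 stromal cell markers, 14 were lower in TKO, and their sum was 639 CPM in WT and 264 CPM in TKO. Of 10 lymphoid markers, 7 had an entry, and they summed to 5.39 and 4.98 CPM. Of 8 neutrophil markers, 7 had an entry, and they summed to 5.48 and 4.80 CPM. Of these 7, 5 were higher and 2 lower in TKO, S100a9 with 21 and 8 counts. In such bulk RNA, fewer cells of a type and less RNA per cell cannot be told apart.

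The Zfp genes were expressed at a low level. Together they took 0.448% of the WT counts (95% exact Clopper-Pearson interval 0.444% to 0.452%) and 0.476% of the TKO counts (0.471% to 0.480%). Reads amplified by PCR are not independent molecules, so all intervals cover counting error only. Their median FPKM (fragments scaled to transcript length and library size, deposited by the authors) was 2.55 in WT and 2.68 in TKO, against 9.65 and 9.33 over all 10783 genes. In WT, 22 Zfp genes reached 10 FPKM and 34 were below 1 FPKM; in TKO, 23 and 34 did so. The 10 most abundant supplied 30.9% of all Zfp counts in WT and 32.1% in TKO.

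Zfp263 and Zfp207 stood at the head of the order by FPKM. Zfp263, a DNA-binding protein with 9 fingers, had 78.61 FPKM in WT and 107 FPKM in TKO. Zfp207, which binds microtubules and the kinetochore protein BUB3, had 91.88 and 87.86 FPKM, so the first place differed between the libraries. Their mean FPKM values were 1.03-fold apart, and the next gene, Zfp710, was 2.36-fold below Zfp207 with 37.24 and 39.05 FPKM. Zfp800 (28.91 and 31.88 FPKM), Zfp384 (27.83 and 26.82), Zfp385a (24.21 and 28.78), Zfp513 (24.81 and 26.36) and Zfp91 (23.35 and 25.20), a ubiquitin ligase of the non-canonical NF-kB pathway, followed. Zfp598, the ubiquitin ligase that senses collided ribosomes, had 20.68 and 23.48 FPKM, and the RNA-binding Zfp106 had 20.47 and 21.63 FPKM. From Zfp384 to Zfp106 each mean FPKM was at most 1.11-fold below the one before it, and with 1 library per genotype this order has no measured spread.

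Few Zfp genes passed the limits set for a difference between the genotypes. Ratios are TKO over WT: a fold is the ratio of CPM from rounded counts with its exact 95% counting interval, and the log2 ratio is taken after adding 0.5 CPM to each value, which understates low genes. A gene was counted as higher or lower when its log2 ratio passed 1.5-fold and its interval excluded equality. By this rule 8 Zfp genes (3.25%) were higher in TKO, where 2.74% of all 10783 genes were, and 2 (0.813%) were lower, where 5.02% of all genes were. At 2-fold, Zfp97 alone was higher and Zfp462 alone was lower, with 0.900% and 1.35% of all genes in those classes. In 107 of the 246 Zfp genes the whole interval lay within 1.5-fold of equality, beside 6942 of all 10783 genes. Intervals are wider at low counts, and the median summed count was 194 for the Zfp genes and 592 for all genes.

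Smaller differences were more frequent. The interval lay above equality in 33 of the 246 Zfp genes, beside 1614 of all 10783 genes (15.0%). It lay below equality in 9 of 246, beside 2279 of 10783 (21.1%). Whether an interval excludes equality depends on the count, which was lower in the Zfp genes. The authors' deposited table gives an adjusted value of at most 0.05 to 16 Zfp genes that were higher and 5 that were lower, beside 11.2% and 15.5% of all genes; 6 of the former and 2 of the latter also counted as higher or lower by the rule used here. The median log2 ratio was 0.05 over the Zfp genes and -0.04 over all genes, and 57.3% of Zfp genes against 42.8% of all genes had a ratio above 0. With TMM scaling (trimmed mean of M values) these medians were 0.10 and 0.00, so both moved by a similar amount. The plot of level against ratio shows the Zfp genes among all genes.

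**Figure D1:**
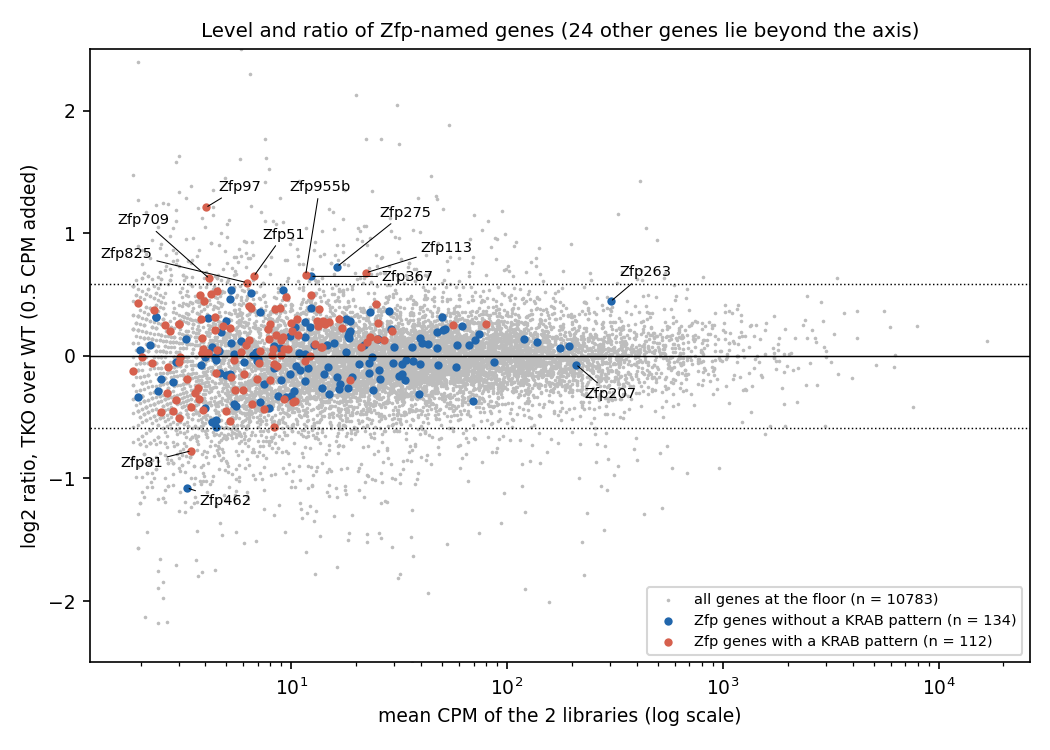
Each point is 1 gene: the x axis is its mean CPM over both libraries on a log scale and the y axis its log2 ratio of TKO over WT after adding 0.5 CPM; grey points are all 10783 genes, red and blue points the Zfp genes with (112) and without (134) a KRAB pattern, and dotted lines mark 1.5-fold. The 8 named points above the upper line and the 2 below the lower line are the Zfp genes counted as higher or lower, all at low level, while Zfp263, the Zfp gene with the most counts, lies at 0.44.

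Zfp97 had the highest ratio of the Zfp genes. It is a KRAB zinc finger gene of chromosome 17 with 13 fingers, and its count was 24 in WT and 63 in TKO (0.81 and 2.10 FPKM), a 2.61-fold difference (1.61 to 4.36). The estimates behind these counts were fractional, which happens where reads were shared with similar genes, so its level is uncertain to that extent. The authors' deposited table gives Zfp97 a log2 ratio of 1.37 and an adjusted value of 0.000298.

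Zfp275, an X-linked gene with 12 fingers, had 131 counts in WT against 222 in TKO (1.91 and 3.21 FPKM), 1.68-fold higher (1.35 to 2.11). Its counts were whole in both libraries, and its 3′ UTR holds the miR-17 site shown above and a miR-18 site. Zfp367, a gene of chromosome 13 with 2 fingers and no KRAB pattern, had 102 and 164 counts (2.70 and 4.31 FPKM), 1.60-fold higher (1.24 to 2.07), also whole. With 4 sites it had more matches to the deleted seeds than any other Zfp gene counted as higher or lower.

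Zfp113 is the Zfp gene nearest to a deleted cluster: it lies 9.59 kb from the mir-106b~25 microRNAs on chromosome 5 and carries the KRAB pattern. It had 183 counts in WT against 298 in TKO (2.60 and 4.20 FPKM), 1.62-fold higher (1.34 to 1.96), from fractional estimates. The next Zfp genes on that chromosome were not higher: Zfp157, 276 kb away, had 44 and 36 counts, and Zfp68, 438 kb away, had 256 and 256. No Zfp gene lay within 2 Mb of the clusters on chromosomes 14 and X, and the nearest on X, Zfp280c, had 66 and 64 counts at 4.15 Mb. Whether the deletion itself acts on Zfp113 was not tested.

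The other 4 genes that were higher are KRAB zinc finger genes. Zfp955b had 96 counts in WT against 156 in TKO (1.61-fold, 1.24 to 2.10), and Zfp51 had 55 and 90 (1.63-fold, 1.15 to 2.32); both lie on chromosome 17 and had fractional estimates. Zfp709 on chromosome 8 had 34 and 56 counts, all whole (1.64-fold, 1.05 to 2.58), and Zfp825 on chromosome 13 had 52 and 82 from fractional estimates (1.57-fold, 1.09 to 2.26). The intervals of Zfp709 and Zfp825 end close to equality. Several genes lay just short of the limit: Zfp408 had 79 and 118 counts (1.48-fold, 1.11 to 2.00), Zfp839 had 45 and 68 (interval 1.02 to 2.24) and Zfp672 had 57 and 84 (1.46-fold, 1.03 to 2.09). For Zfp672 the deposited FPKM was 2.89 in WT and 5.52 in TKO, a 1.91-fold difference, so its count and its FPKM gave different sizes. These 3 genes were picked after their values were seen.

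Zfp462 was the Zfp gene that was lowest in TKO relative to WT. Its product has 34 fingers and works in chromatin with HP1 proteins, and its count was 50 in WT and 21 in TKO (0.43 and 0.18 FPKM), 2.40-fold lower (1.41 to 4.20), from fractional estimates. Of the stromal markers, 12 of 16 were lower past the same limit, Col1a1 with 2055 and 550 counts, and none was at 0 in either library; their part in the Zfp462 difference was not tested. Zfp81, a KRAB gene of chromosome 17, had 48 and 26 counts (1.98 and 1.05 FPKM), 1.86-fold lower (1.13 to 3.12). Its estimates were fractional, and its 3′ UTR holds a pair of miR-18 matches. Among genes short of the limit on the log2 scale, Zfp426 had 108 and 71 counts (1.53-fold lower, 1.12 to 2.10) and Zfp213 had 59 and 38 (1.56-fold lower, 1.02 to 2.42); both were picked after their values were seen.

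**Figure D2:**
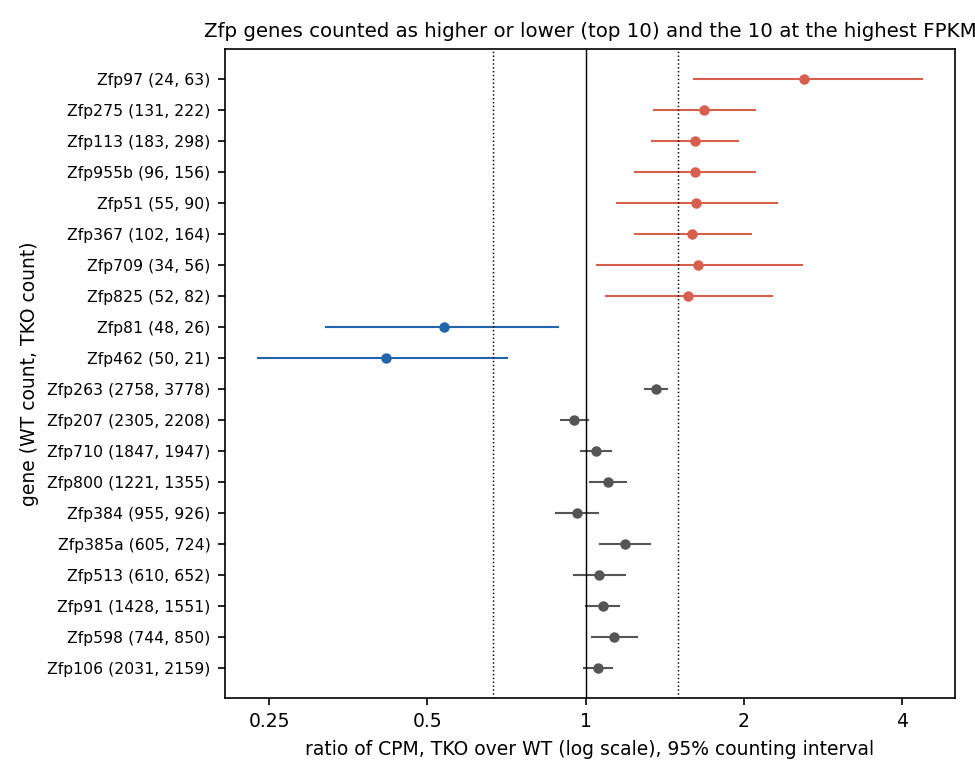
Points are ratios of CPM, TKO over WT, on a log axis, with exact 95% counting intervals as bars and the WT and TKO counts beside each name; red marks the 8 Zfp genes counted as higher, blue the 2 counted as lower and grey the 10 at the highest FPKM, and dotted lines mark 1.5-fold in each direction. The red and blue intervals are wide because the counts run from 21 to 298, whereas Zfp263, with 2758 and 3778 counts, has a narrow interval wholly between equality and 1.5-fold.

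By role, 5 groups of genes were described: 4 of Zfp genes and the partners of KRAB silencing. For the Zfp genes listed for imprinting or retroelement silencing, 11 of 16 listed genes reached the sum of 40. None was 1.5-fold apart, and 9 of 11 had a ratio above 0, beside 57.3% of all Zfp genes. Their median log2 ratio was 0.17, beside 0.05 for all Zfp genes and -0.04 for all genes. Zfp429, Zfp459, Zfp729a, Zfp729b and Zfp738 of this group are neighbours on chromosome 13, all with fractional estimates and ratios above 0. Zfp445, which maintains imprints, had 554 counts in WT against 665 in TKO (1.19-fold, 1.06 to 1.34). Zfp809, which silences endogenous retroviruses through their primer binding site, had 96 and 97. Zfp568, which silences a placental promoter of Igf2, had 139 and 169 counts (1.21-fold, 0.959 to 1.52). The KRAB pattern described with the protein classes was not found in Zfp729b or Zfp202, the ends of the group. Zfp729b had the highest ratio, 115 and 153 counts (1.32-fold, 1.03 to 1.70), and Zfp202 the lowest, 50 and 36 (0.715-fold, 0.453 to 1.12). Zfp57, the best-known imprint-keeping gene, had 1 count in each library and was left out by the limit.

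Of the RNA- and ribosome-related Zfp genes, 10 of 11 reached the sum. None was 1.5-fold apart, 6 had a ratio above 0 and the median log2 ratio was 0.10. Zfp385a, a nucleic acid-binding partner of p53, had 605 counts in WT against 724 in TKO (1.19-fold, 1.07 to 1.33), the highest ratio of the group. Zfp598 had 744 and 850 counts (1.13-fold, 1.03 to 1.25). Zfp346, which binds double-stranded RNA, had the lowest ratio with 105 and 83 counts (0.785-fold, 0.582 to 1.06). Zfp622, a factor of large ribosomal subunit maturation, had 359 and 344 counts.

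The Zfp genes of promoter and GC-rich DNA binding held abundant genes on both sides of equality. None of the 11 of 12 that reached the sum was 1.5-fold apart, 4 had a ratio above 0 and the median log2 ratio was -0.08. Zfp263 had 2758 counts in WT against 3778 in TKO, 1.36-fold higher with the narrow interval 1.30 to 1.43, and in the authors' deposited table it has the smallest adjusted value of the Zfp genes, 3.04e-33, which compares the 2 libraries and not the genotypes. Zfp281, which binds GC-rich promoters, had 845 and 659 counts, 1.29-fold lower (1.16 to 1.43), and Zfp335 had 468 and 379, 1.24-fold lower (1.08 to 1.43). Zfp410, known as a direct activator of Chd4, had 196 and 163 counts (0.826-fold, 0.667 to 1.02), while Chd4 had 6928 and 7860 (1.13-fold). Zfp143, which binds promoters and chromatin loop anchors, had 259 and 287 counts.

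For the chromatin and corepressor Zfp genes, 15 of 20 reached the sum, Zfp462 was the only 1 counted as higher or lower, 7 had a ratio above 0 and the median log2 ratio was -0.05. Zfp217, a component of corepressor complexes, had 501 counts in WT against 584 in TKO (1.16-fold, 1.03 to 1.31). Zfp687 had 219 and 284 counts (1.29-fold, 1.08 to 1.54), and Zfp592, which shares a complex with it, had 437 and 420 (0.955-fold, 0.833 to 1.09). Zfp318, known from immunoglobulin RNA processing in B cells, had 267 and 348 counts (1.29-fold, 1.10 to 1.52), and its deposited FPKM of 2.52 and 2.83 gave a smaller difference of 1.12-fold.

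All 27 listed partners of KRAB silencing were measured, none counted as higher or lower and their median log2 ratio was -0.02. The partner with the lowest ratio, Suv39h2, had 32 and 21 counts (1.53-fold lower) with an interval of 0.858 to 2.80 that includes equality. Intervals lay above equality for 5 and below it for 8. Trim28, the scaffold that KRAB domains bind, had 889 counts in WT against 686 in TKO (1.30-fold lower, 1.18 to 1.44). Setdb1 had 405 and 401 counts (0.984-fold, 0.855 to 1.13), while its cofactor Atf7ip had 239 and 316 (1.31-fold, 1.11 to 1.56). Cbx3, which encodes HP1 gamma, had 527 and 389 counts (0.733-fold, 0.642 to 0.837). Uhrf1, which guides maintenance DNA methylation, had 389 and 278 (0.710-fold, 0.606 to 0.830), and the de novo methyltransferase gene Dnmt3a had 677 and 876 (1.29-fold, 1.16 to 1.42). The group thus held intervals on both sides of equality, as the plot of the silencing partners shows. Apart from Trim28 and Setdb1, these partners were named after their values were seen.

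**Figure D3:**
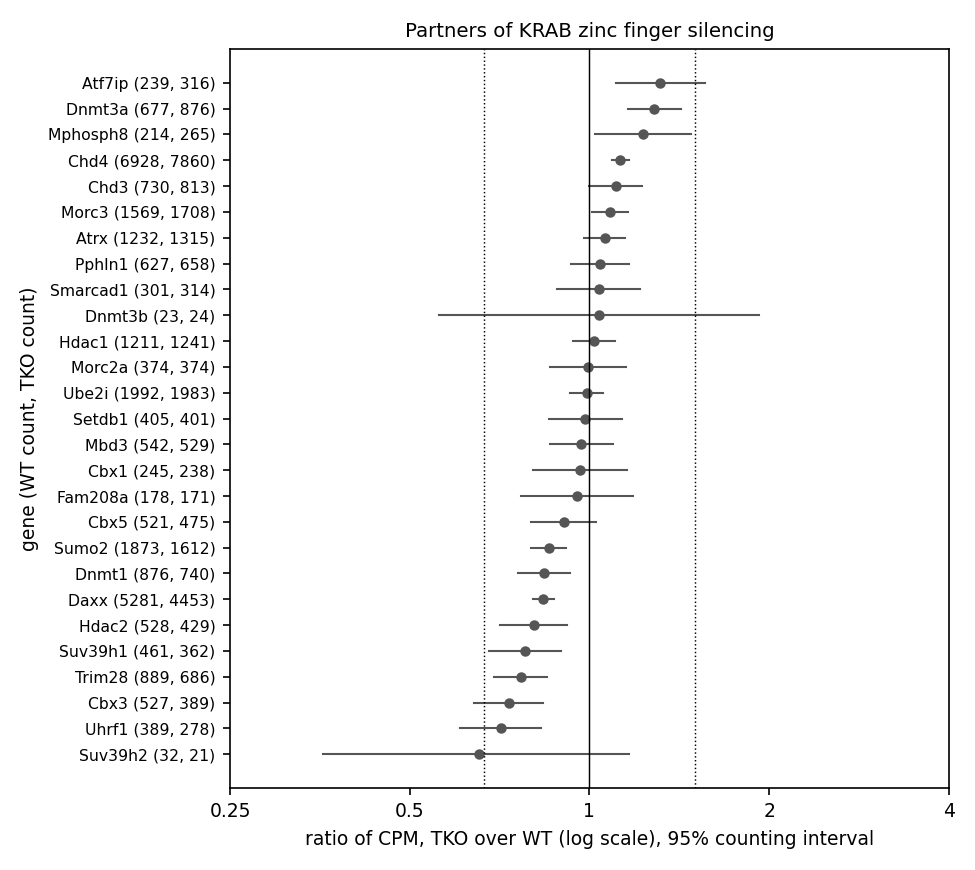
Points are ratios of CPM, TKO over WT, on a log axis for the 27 partners of KRAB silencing, with exact 95% counting intervals as bars and WT and TKO counts beside each name; dotted lines mark 1.5-fold in each direction. Of the 27 bars, 22 lie wholly inside the dotted lines, with Atf7ip, Dnmt3a, Mphosph8, Chd4 and Morc3 wholly to the right of equality and 8 genes wholly to the left.

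By protein class, 196 of the 246 Zfp genes carry the orthology class K09228, KRAB zinc finger protein, in the deposited table, and 50 do not. The class is broad: it is also given to Cnn3, a calponin gene. The K09228 genes had 7 higher and 2 lower, with a median log2 ratio of 0.06, and the others had 1 higher and 0 lower, with a median of 0.02. A pattern for the core of the KRAB domain was therefore searched in the translated coding sequence of each gene, and 112 Zfp genes held it, while 87 genes of K09228 lacked it. A gene that lacks the pattern may still carry the domain. For example, the pattern was found in Zfp729a and not in its neighbour Zfp729b. Genes with the pattern had 6 higher and 1 lower, a median log2 ratio of 0.11 and 65.2% of ratios above 0. Genes without it had 2 higher and 1 lower, a median of 0.01 and 50.7% above 0. The 38 genes with the pattern that are not named Zfp had 5 higher and 4 lower, a median of -0.01 and 50% above 0. Their median summed count was 106. For the Zfp genes, the median count summed over both libraries was 148 with the pattern and 267 without it.

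Fractional estimates moved with this split. Of the genes with the pattern, 87 had a fractional estimate and 25 had whole counts in both libraries, with median log2 ratios of 0.13 and 0.05. Without the pattern, 43 were fractional and 91 whole, with medians of 0.01 and -0.03. Over all Zfp genes the median was 0.07 for the 130 with a fractional estimate and -0.00 for the 116 with whole counts, 58 of which were above 0. Over all 10783 genes, fractional estimates had a median of -0.01 and whole counts -0.05. The part of read sharing in the difference between the classes was not tested.

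**Figure D4:**
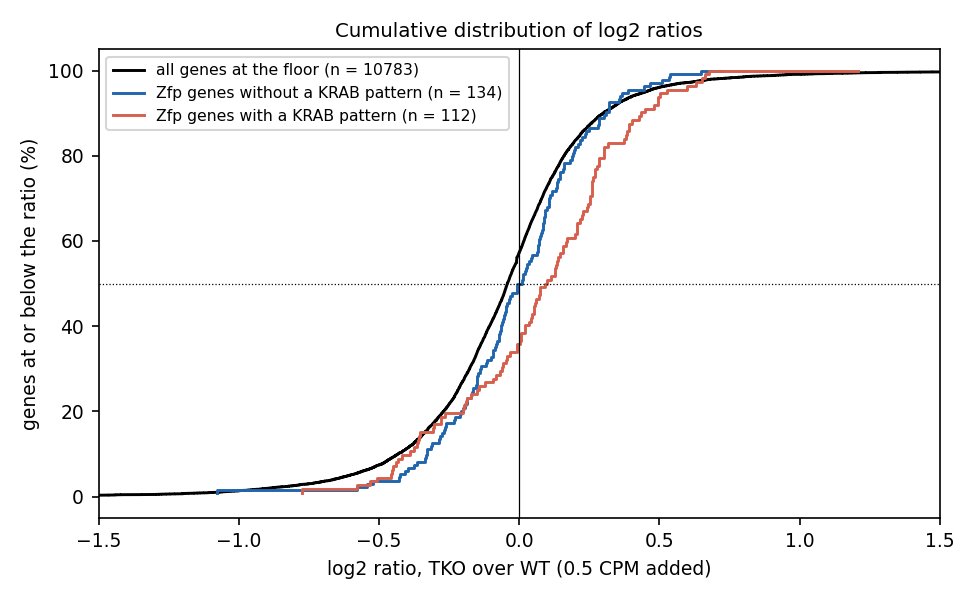
Each curve gives the percentage of genes (y axis) at or below a log2 ratio of TKO over WT (x axis, after adding 0.5 CPM): black for all 10783 genes, blue for the 134 Zfp genes without a KRAB pattern and red for the 112 with it, and the dotted line marks the median. The red curve crosses the median at 0.11, the blue curve at 0.01 and the black curve at -0.04.

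Finger number and level varied along with the class. The median Zfp gene held 10 fingers, 12 with the KRAB pattern and 8 without it. The median log2 ratio was -0.01 for the 34 genes with 1 to 4 fingers, -0.01 for 71 with 5 to 9, 0.06 for 81 with 10 to 14 and 0.13 for 55 with more than 14. For the 5 genes with 0 fingers found it was 0.145, with 3 ratios above 0. By summed count, the median was -0.01 for the 62 Zfp genes at 40 to 100, 0.01 for 66 at 100 to 200, 0.09 for 69 at 200 to 500 and 0.09 for 49 at 500 or more. All genes of the same count ranges had medians of -0.12, -0.11, -0.08 and -0.02, so the Zfp median was above that of all genes in each range. None of these differences has a replicate check.

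The Zfp genes lie on 20 chromosomes, and chromosomes 7 (54 genes), 17 (37) and 13 (24) hold the most. On chromosome 7 none counted as higher or lower, 35 of 54 had a ratio above 0 and the median log2 ratio was 0.08, beside -0.05 for all genes of that chromosome. Chromosome 13 had 18 of 24 above 0, Zfp367 and Zfp825 higher, and a median of 0.13, beside -0.03 for all its genes. Of the 9 chromosomes with 10 or more Zfp genes, chromosome 17 had the widest range, with Zfp97, Zfp955b and Zfp51 higher, Zfp81 lower and a median of 0.04.

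Neighbouring genes did not share 1 direction. Grouping Zfp genes with gaps of at most 500 kb gave 11 clusters of 5 or more, which hold 96 genes (39.0%), and 8 clusters had a median above 0. The chromosome 13 cluster from Zfp712 to Zfp85 (chr13:67038594-67755202) holds 17 genes, 16 with fractional estimates. Of these 12 were above 0, the median log2 ratio was 0.12, the range -0.34 to 0.40 and none was 1.5-fold apart. The chromosome 17 cluster from Zfp160 to Zfp213 (chr17:21008941-23564226) also holds 17 genes, and its median was -0.15 with Zfp51 higher at one end of a range from -0.58 to 0.65. In the cluster from Zfp871 to Zfp414 (chr17:32765496-33631716), which holds 12 genes, Zfp955b was higher and Zfp81 lower.

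**Figure D5:**
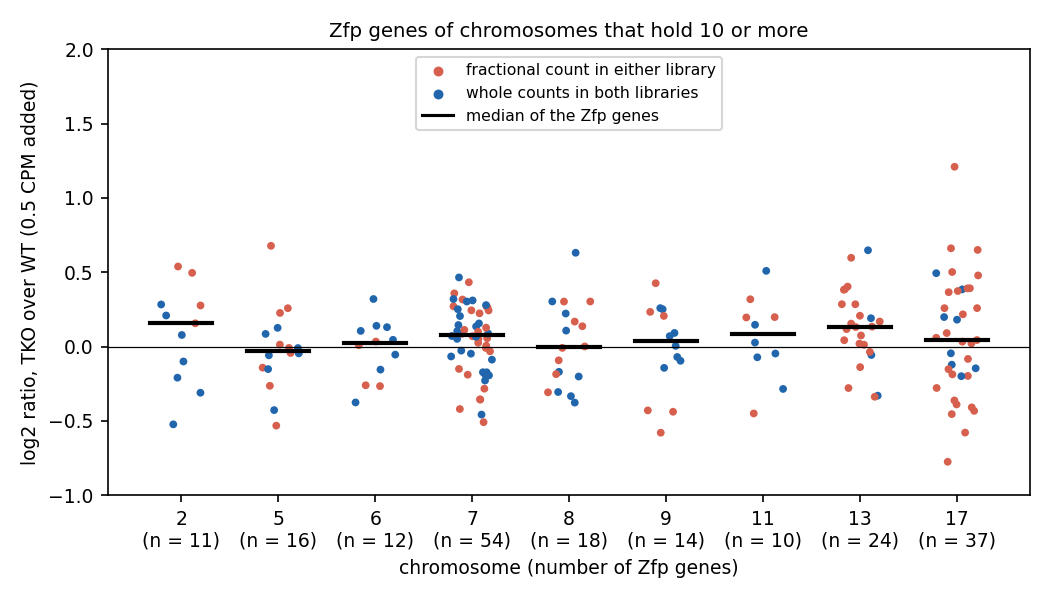
Points are log2 ratios of TKO over WT (y axis, after adding 0.5 CPM) of the Zfp genes on each chromosome with 10 or more of them (x axis), red where the estimate was fractional in either library and blue where counts were whole in both, with the median as a black bar; horizontal scatter within a chromosome carries no value. Chromosome 17 runs from Zfp81 at -0.77 to Zfp97 at 1.21, and the medians of the 9 chromosomes lie between -0.03 and 0.16.

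Matches to the deleted seeds were about as frequent in Zfp 3′ UTRs as in others. Of 245 Zfp genes with an annotated 3′ UTR, 92 (37.6%) held a site of any of the 4 families, against 36.0% of 10412 genes. The shares were 14.3% against 15.5% for miR-17, 10.6% against 10.4% for miR-18, 16.3% against 14.2% for miR-19 and 7.76% against 7.99% for miR-92. The median 3′ UTR was 1719 bases long in Zfp genes and 1409 bases in all genes. Some sites, such as the miR-92 sites of Zfp263 and Zfp606, lie in sequence that can be read as finger-coding. The Zfp shares and lengths may therefore include bases that other transcripts translate, and how many was not checked. A match is a description of the sequence and does not show that a microRNA acts there.

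Zfp genes with a site had a median log2 ratio of 0.07 (6 higher, 1 lower) and those without 0.02 (2 higher, 1 lower). That is 6.52% higher and 1.09% lower with a site and 1.31% and 0.654% without, shares that rest on few genes. Zfp genes with a site also had longer 3′ UTRs, with a median of 2834.5 bases against 1258 bases without. Their median summed count was 258.56 against 172. The part of length and level in the difference was not tested. Over all genes with a site 2.67% were higher and 4.18% lower, over those without 2.45% and 5.32%, and the medians were -0.01 and -0.06. The 35 Zfp genes with a miR-17 site had a median of 0.09, beside 0.01 for all 1618 such genes, and the 19 with a miR-92 site had 0.01, beside 0.00. The 40 with a miR-19 site had 0.09, beside -0.01, and the 26 with a miR-18 site had 0.07, beside -0.02. Among the 8 higher genes, Zfp51 and Zfp825 had no site, and of the lower genes Zfp462 had none. Zfp451, linked to the SUMO pathway, had the most sites of the Zfp genes, 5, with 181 counts in WT and 223 in TKO.

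Other zinc finger families were set beside the Zfp genes. The 36 Zbtb genes, whose products carry a BTB domain, had a median log2 ratio of 0.08, with Zbtb4 higher (162 and 263 counts, 1.61-fold, 1.32 to 1.97) and Zbtb32 lower (73 and 37, 1.99-fold lower, 1.32 to 3.04). The 14 Zscan and Zkscan genes, with a SCAN domain, had a median of 0.05, with Zkscan5 higher (37 and 61) and Zkscan14 lower (35 and 18). The 92 genes of class K09228 that are not named Zfp had 5 higher and 6 lower and a median of 0.02. No test of the difference between these families and the Zfp genes was possible.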

How the data were processed

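Polyadenylated RNA of 1 WT and 1 TKO library was compared. Per the submitters' processing notes, the tools were Bowtie2 2.2.5, HISAT2 2.0.4 and RSEM 1.2.12 on build mm10. What each tool did, the annotation, the strand setting and the test behind the p-values are not given in the sources used here. Overlapping antisense genes therefore cannot be told apart. The authors deposited estimated counts per gene, which are whole for 50.8% of the Zfp genes in WT and 51.6% in TKO (79.2% and 79.4% of all genes), and rounding to whole numbers came first. FPKM per gene, with 0.01 in place of 0, and the log2 ratio of FPKM were likewise deposited, and the log2 values were recomputed with the same result. Their deposited p-value and adjusted value, treated as a score because it exceeds its bound as a probability, compare the 2 libraries. The deposited gene length in bases was used only to describe the genes. The share of the entry without a symbol was 9.29e-06% in WT and 9.23e-06% in TKO, and it was left out; 0 columns had no sample.

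CPM, ratios, Clopper-Pearson intervals and medians were computed with Python 3.11.15, numpy 2.4.6, scipy 1.17.1 and pandas 2.3.3. TMM factors came from edgeR 4.0.16 and size factors from DESeq2 1.42.0 in R 4.3.3, for alternative scalings of the counts and with no test. The ratio script was tested on simulated data. All 246 genes matched the RefSeq table of GRCm38.p6 by gene ID, which gave positions. Coding sequences (246 genes) and the longest annotated 3′ UTR of any transcript of the gene (245 genes) came from GENCODE M21 on GRCm38. Bases of that 3′ UTR that another transcript translates were not removed. Fingers were counted as 2 cysteines 2 to 4 residues apart, 12 residues, and 2 histidines 3 to 5 residues apart. The KRAB pattern was loosened once so that it found more of the Zfp genes.

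Named genes were those past 1.5-fold, the 10 at the highest FPKM, examples at the ends of each role list, genes at the limit of the choice and genes within 2 Mb of a deleted cluster, plus those said to be picked by their values. The genes, lists and markers were chosen with earlier results of these data known.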

Additional observations from a re-analysis of the deposited data

How the results depend on the processing

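No paired analysis was possible because each genotype had 1 library. The number of Zfp genes higher in TKO was 8, and it was 1 at a 2-fold limit, 4 with a summed count of at least 200, 4 with 2 CPM added, 3 among genes with whole counts and 33 by the interval alone. The number lower was 2, and it was 1 at 2-fold, 4 with deposited FPKM, 0 with a summed count of at least 100 or 200, 0 among genes with whole counts, 9 by the interval alone, 6 with no limit on the count, 4 with 0.1 CPM added and 1 with 2 CPM added. The genes kept account for the counts with other limits on the summed count and with whole counts, since the ratios stayed the same. The 2-fold and interval settings changed only the limit for a call. The cause of the other changes was not tested. The median log2 ratio of 0.05 became 0.10 with TMM scaling, 0.08 with DESeq2 size factors, 0.0911 with a summed count of at least 200 and -0.0014 among genes with whole counts. The interval and whole-count settings were chosen after seeing the data. Of the calls, 80% were higher, which became 100% with summed counts of at least 100 or 200 or with whole counts, 64.7% with no limit, 66.7% with 0.1 CPM added, 71.4% with FPKM and 50% at 2-fold. Of 526 comparisons for 61 named genes, 521 kept their side of the limit, and 5 with 2 CPM added no longer passed it (Zfp367, Zfp51, Zfp709, Zfp825 and Zfp81). No gene past the limit in either setting changed direction. Changes of direction among genes short of the limit in both settings were not counted. KRAB domains could not be searched in RefSeq proteins as planned, and translated GENCODE sequences were used. With 1 library per genotype, counting error sets only the smallest possible error.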

Other observations

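The promoters of the Zfp genes were lower in GC than those of all genes. In RefSeq promoter windows of GRCm38.p6 (250 bases before to 50 after the start), the median GC content was 55.0% for 209 Zfp genes and 61.0% for 8707 genes, and the ratio of observed to expected CpG was 0.660 and 0.781. Zfp genes of class K09228 had 54.3% GC and the other Zfp genes 60.3%. The coding sequence was longer in Zfp genes, with a median of 1751 bases against 1401 bases. These values describe the sequences and were not compared with the ratios.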
